A study of Homo sapiens with 6 samples.

Results

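The MYC, MAX and MXD network is a group of transcription factors that share a basic helix-loop-helix leucine zipper. Rows of the count table were taken where the Ensembl identifier carried the symbol MYC, MYCN, MYCL, MAX, MXD1, MXD3, MXD4, MXI1, MNT or MLX. All 10 members were found among the 58825 gene identifiers of the table. RNA had been measured by RNA-seq in SKOV3, an established human ovarian cancer cell line. One group of 3 libraries came from cells that received a control siRNA without a target (NC), and the other group of 3 from cells transfected with si-EIF5A2, an siRNA against the translation factor gene EIF5A2. The description of the series gives 48 h of transfection for both groups, and both were transient transfections of 1 cell line with 1 si-EIF5A2 reagent. Nothing in the labels says that the 3 libraries of a group came from separate cultures, so p-values measure only the spread between these libraries.

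MYC, MYCN and MYCL bind DNA only as partners of MAX, and such pairs activate genes that hold an E-box, the letters CACGTG, near their start. MXD1, MXD3, MXD4, MXI1 and MNT compete for the same partner and the same sites, and recruit SIN3 and histone deacetylases, which silence genes. MLX is a second partner that pairs with some MXD proteins and MNT, and with the glucose-responsive factors MLXIP and MLXIPL. The MYC gene is often amplified in ovarian cancer, and the MYC protein is short-lived, with its level set by phosphorylation and ubiquitin ligases as well as by its RNA.

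The libraries held 46900204 to 74142267 estimated counts each. Low values lay at multiples of about 3.86, which puts the libraries at about 12200000 to 19200000 fragments. A gene with 0 counts could have had up to 3 fragments, which is 0.159 to 0.246 CPM (normalized counts relative to the library size, scaled by edgeR's TMM library sizes), counting error only. EIF5A2 itself measured 27.8, 29.8 and 29.9 CPM in NC and 2.76, 4.04 and 4.27 CPM after si-EIF5A2, which was 12.7% of NC. Libraries of the same group correlated at 0.964 to 0.974 (Pearson, log2 CPM across genes) and libraries of different groups at 0.929 to 0.938. The keratins KRT7, KRT8 and KRT18 were present at 382, 608 and 418 CPM in NC, and ERBB2 and PAX8 were present too. The epithelial markers KRT19 (3.22 ± 0.571 CPM in NC, SD, n = 3), EPCAM (1.55 ± 0.0962 CPM) and CDH1 (0.663 ± 0.302 CPM) were low. Of the 8 markers of other cell types, PTPRC and CD3E had 0 counts in every library. The endothelial marker PECAM1 measured 1.87 ± 0.226 CPM in NC and 0.318 ± 0.335 CPM after si-EIF5A2 (edgeR adjusted p = 0.0941). VWF, also an endothelial marker, measured 0.235 ± 0.155 and 0.162 ± 0.167 CPM (edgeR adjusted p = 0.775), and its groups overlapped. In bulk RNA, fewer cells of a type and less RNA per cell cannot be told apart.

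No member of the network passed the test. A call here needed a Benjamini-Hochberg adjusted p below 0.05 over 16208 genes, from edgeR's quasi-likelihood fit, together with a fold change over 1.5. Of all genes tested, 24.6% were called, 1792 higher and 2200 lower after si-EIF5A2. Of the 8 epithelial markers 3 were called lower (37.5%), KRT7, KRT8 and PAX8, and 0 higher, and the part of these shifts in the results on the network was not tested. Of the 9 members tested, 0 were called by edgeR and 0 by DESeq2, which called 26.6% of all genes. The other threshold in the study's methods, an unadjusted p below 0.05 with a 2-fold change, gave 0 members too, and 14.6% of all genes. At an unadjusted p under 0.05 edgeR gave 1 member and DESeq2 gave 2, against 45.2% of all genes by edgeR. The absolute log2 fold change of 7 of the 9 lay below the median of all genes tested, 0.446. With its sign, the median log2 fold change of the 9 was 0.26, against -0.01 for all genes tested. It was negative for 1 of the 9 members and for 8225 of the 16208 genes tested. The 95% intervals of MAX, MXD3, MXI1 and MNT lay within a 1.5-fold change in either direction. The other 5 tested members had intervals that reached beyond 1.5-fold.

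**Figure D1:**
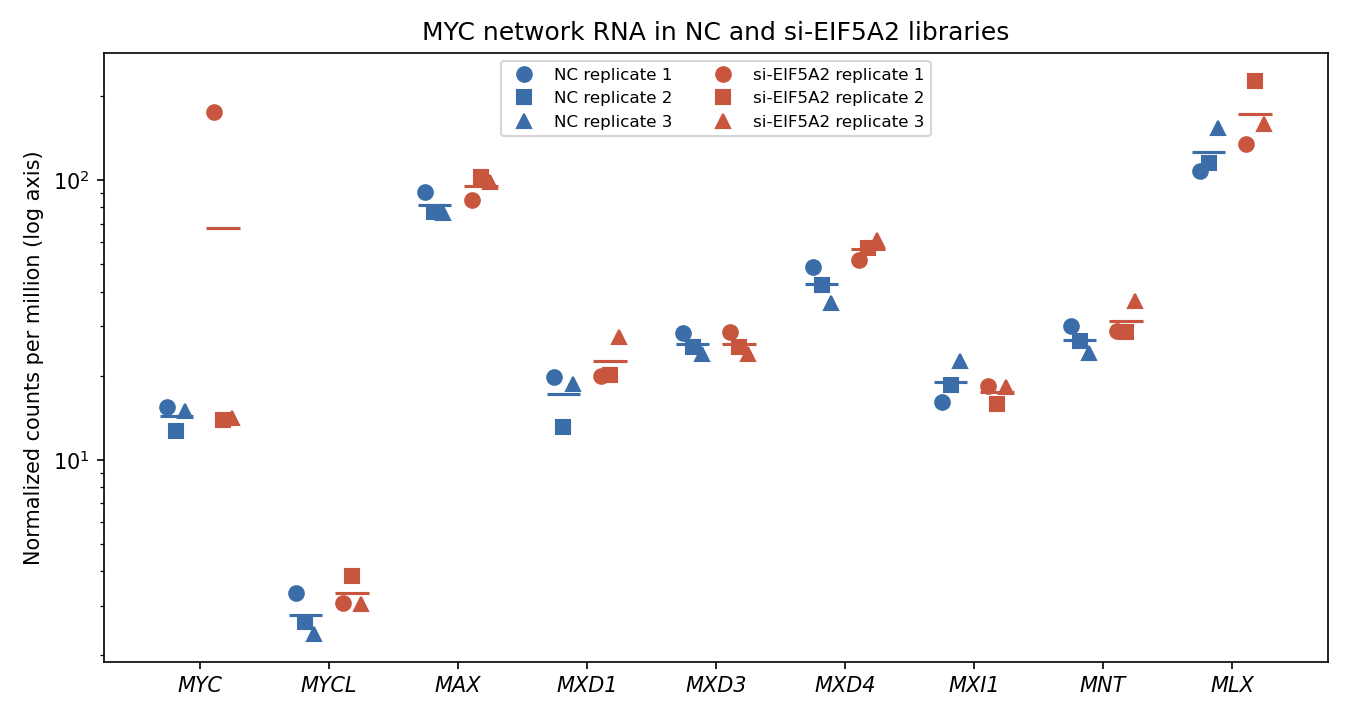
CPM (log axis) of the 9 members that were tested, in NC (blue) and si-EIF5A2 (red) libraries, with the replicate number as the shape and a bar at the group mean. MYC in si-EIF5A2 replicate 1, at 175 CPM, stands far from the other 5 MYC values of 12.7 to 15.5 CPM, while for the other 8 members no library stands apart from its group by that much.

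MYC, the founding activator, measured 15.5, 12.7 and 15 CPM in NC and 175, 13.9 and 14.1 CPM after si-EIF5A2. Replicate 1 of si-EIF5A2 was 12.5 times the mean of the other two si-EIF5A2 libraries, and those fell inside the range of NC. The estimated counts behind these values were 1130, 902 and 707 in NC and 8933, 724 and 674 after si-EIF5A2. The gene lies on the plus strand at chr8:127735434-127741434 (GRCh38, GENCODE release 29).

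The fitted log2 fold change of MYC was 2.23 (SE 1.17, edgeR adjusted p = 0.214), with a 95% interval from -0.80 to 5.25. This value rests on 1 library. Without si-EIF5A2 replicate 1 it was -0.05 (SE 0.14, edgeR adjusted p = 0.822), and the interval of the fold ran from 0.766 to 1.21. DESeq2 gave MYC no p, since its Cook's distance rule withdrew it, as it did for 24 genes in all. Leaving out any one of the other 5 libraries left the log2 fold change between 2.15 and 2.71.

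Few genes behaved like this in any library. A gene at 10 CPM or more in 1 library and over 10 times its level in each of the other 5 was found 2 times in si-EIF5A2 replicate 1 of 16208 genes tested. These were MYC and the zinc finger gene ZNF805. The same count was 0, 1 and 1 in NC replicates 1, 2 and 3, and 1 and 0 in si-EIF5A2 replicates 2 and 3. At over 2 times, si-EIF5A2 replicate 1 had 9 such genes, and the other libraries had 7 to 14. By that count si-EIF5A2 replicate 1 lay within the range of the other libraries.

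Genes around MYC were looked at in the same libraries. PVT1, a long non-coding RNA gene 53.1 kb away, measured 48.7, 44.8 and 49.8 CPM in NC and 39.7, 44.3 and 44.2 CPM after si-EIF5A2, so its lowest value was in the library where MYC was highest. CASC11, which lies 1.47 kb from MYC, stayed at or under 0.315 CPM in every library. CASC8, 253 kb away, had 240, 306 and 238 counts in NC and 1, 138 and 154 counts after si-EIF5A2. Its lowest value was thus also in si-EIF5A2 replicate 1. LINC02912, 205 kb away, measured 0.219, 0.254 and 0.319 CPM in NC and 0.489, 0.23 and 0.396 CPM after si-EIF5A2. CCDC26, 893 kb away, measured 0.110, 0.325 and 0.255 CPM in NC and 0.372, 0.134 and 0.292 CPM after si-EIF5A2. Both had their highest value in si-EIF5A2 replicate 1, at levels near the limit that 3 fragments set. The other 5 of 10 neighbouring genes examined stayed at or under 0.553 CPM, and none of those had its highest value there. The neighbours described were picked with their values in view.

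The genes whose pattern was most like that of MYC over the 6 libraries, among 8843 genes at a mean of 10 CPM or more, were ANKRD46 (Pearson r of log2 CPM 0.9979), AP5M1 (0.9951) and GEM (0.9928). These likenesses rest on the same single library. ANKRD46 measured 35.5 CPM in si-EIF5A2 replicate 1 and 27.9 to 28.5 CPM in the other 5. AP5M1 measured 22.0 CPM there and 16.4 to 17.1 CPM elsewhere. GEM, a small GTP-binding protein gene, measured 61.8 CPM there and 25 to 28 CPM elsewhere.

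The RNA of MYC target genes in si-EIF5A2 replicate 1 was set beside that of replicates 2 and 3. The list used was the MYC targets V2 list, which is rich in genes of nucleolus and ribosome assembly. On the log2 CPM scale MYC stood 3.64 above the mean of the other two libraries. The 56 target genes tested had a median difference of -0.05, against 0.02 over all genes tested. They ran from -1.27 to 0.64, and 23 of the 56 were higher in replicate 1, against 8479 of the 16208 genes tested. The middle 90% of all genes tested lay between -0.98 and 0.97.

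The other two MYC genes were low or without counts. MYCN, at chr2:15940564-15947007, had 0 counts in all 6 libraries and was not tested. MYCL, at chr1:39895426-39902256, measured 3.34, 2.63 and 2.38 CPM in NC and 3.07, 3.85 and 3.06 CPM after si-EIF5A2. The groups overlapped, and the log2 fold change was 0.26 (SE 0.22, edgeR adjusted p = 0.412). Both genes overlap a gene on the opposite strand (MYCNOS for MYCN), and since the strand setting of the counting is not given in the sources used here, reads of such a pair cannot be told apart. The same limit holds for MAX, MXD3 (with PRELID1), MXI1, MNT and MLX (with PSMC3IP).

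MAX, the shared partner at chr14:65006174-65102695, measured 90.9, 77.3 and 76.1 CPM in NC. After si-EIF5A2 it measured 85.2, 103 and 98.3 CPM. The means were 81.4 ± 8.22 and 95.5 ± 9.18 CPM (SD, n = 3 each), and the lowest si-EIF5A2 value lay inside the NC range. The log2 fold change was 0.23 (SE 0.11, edgeR adjusted p = 0.132), a fold of 1.17 with a 95% interval from 0.989 to 1.39.

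Of the repressor members, MXD4 came nearest to a call. It lies on the minus strand at chr4:2247432-2262294 and is usually expressed as cells leave the cycle and differentiate. MXD4 measured 48.8, 42.1 and 36.4 CPM in NC and 51.9, 57.3 and 60.9 CPM after si-EIF5A2, so all 3 si-EIF5A2 libraries were above all 3 NC libraries. Of the 9 members, 2 had groups that did not overlap, MXD4 and MXD1, against 51.2% of all genes tested.

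The log2 fold change of MXD4 was 0.42 (SE 0.12, edgeR adjusted p = 0.0306). Its fold of 1.34, with a 95% interval from 1.10 to 1.63, did not reach the 1.5 of the call. With no limit on the fold 36.9% of all genes were called, 18% higher after si-EIF5A2, and among the members only MXD4 was. Leaving out 1 library at a time moved its adjusted p between 0.0134 and 0.103. It was above 0.05 without NC replicate 2 (0.0861), NC replicate 3 (0.0858), si-EIF5A2 replicate 2 (0.0762) or si-EIF5A2 replicate 3 (0.103).

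MXD1, at chr2:69897688-69942945, measured 19.8, 13.1 and 18.7 CPM in NC and 20.0, 20.2 and 27.5 CPM after si-EIF5A2. The highest NC value, 19.8, lay just under the lowest si-EIF5A2 value, 20.0, and the log2 fold change was 0.39 (SE 0.19, edgeR adjusted p = 0.157). MXD3, a member found mainly in dividing cells, at chr5:177301461-177312757, measured 28.5, 25.3 and 24.0 CPM in NC and 28.6, 25.3 and 24.0 CPM after si-EIF5A2. Its fold of 1 had a 95% interval from 0.839 to 1.20. MXD1 shares exon sequence on its own strand with SNRNP27, MXD3 with RAB24 and MXD4 with MIR4800, so their counts are less certain.

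MXI1 was the one member with a negative fitted change. It lies at chr10:110207605-110287365 and measured 16.1, 18.5 and 22.6 CPM in NC and 18.4, 15.8 and 18.2 CPM after si-EIF5A2. The log2 fold change was -0.12 (SE 0.15, edgeR adjusted p = 0.571), and without NC replicate 3 it was 0.01. MNT, the broadly expressed repressor at chr17:2384060-2401118, measured 30, 26.7 and 24.1 CPM in NC and 29, 28.7 and 37.0 CPM after si-EIF5A2. The log2 fold change was 0.23 (SE 0.13, edgeR adjusted p = 0.231).

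MLX had the highest mean of the members in both groups, though MYC was above it in si-EIF5A2 replicate 1. It lies on the plus strand at chr17:42567068-42573239 and measured 108, 115 and 154 CPM in NC and 135, 227 and 159 CPM after si-EIF5A2. The spread between libraries was wide in both groups (126 ± 25 and 173 ± 47.7 CPM), and the groups overlapped. The log2 fold change was 0.47 (SE 0.23, edgeR adjusted p = 0.17), and it was 0.23 without si-EIF5A2 replicate 2, the highest library. DESeq2 gave an unadjusted p of 0.0259 and an adjusted p of 0.0623.

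**Figure D2:**
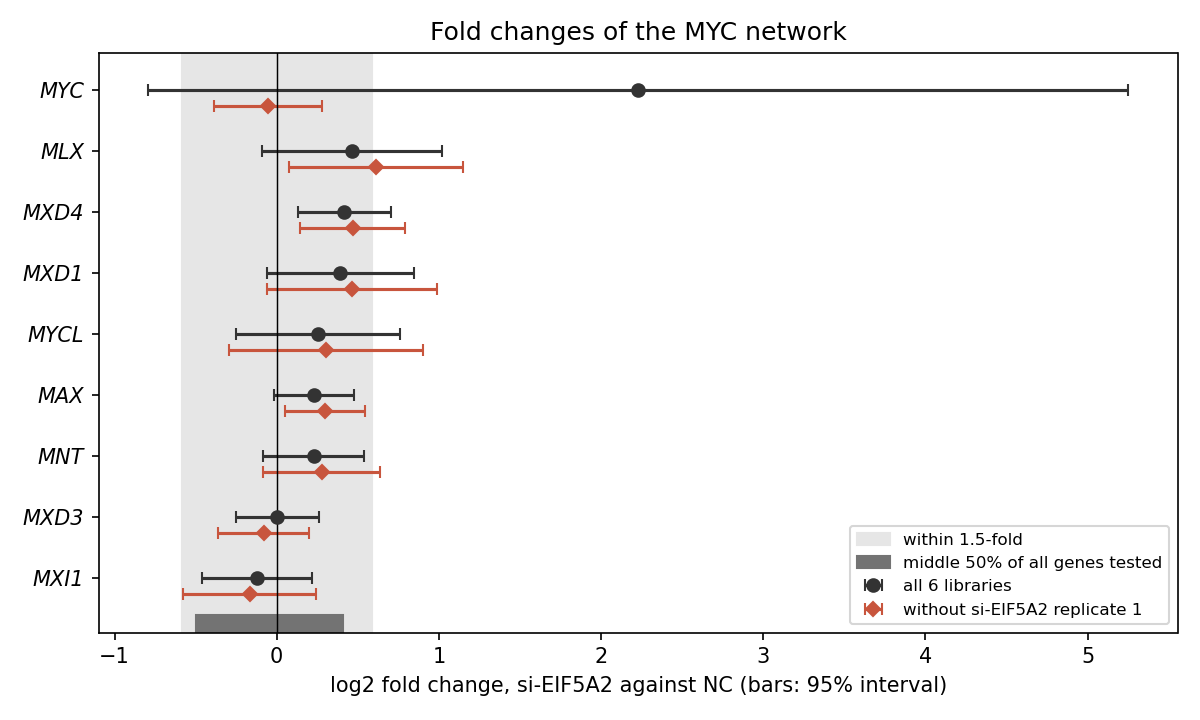
Fitted log2 fold change of si-EIF5A2 against NC for the 9 members tested, with 95% intervals from edgeR, using all 6 libraries (black circles) or without si-EIF5A2 replicate 1 (red diamonds). Light grey marks 1.5-fold in either direction and the dark bar the middle 50% of all genes tested (-0.50 to 0.41), and MYC moves from 2.23 to -0.05 when that library is left out.

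The levels of all 10 members were compared per length of exon. In NC the order was MLX (29.5 ± 5.87 CPM per kilobase), MAX (18.4 ± 1.86), MXD4 (6.01 ± 0.885), MXD3 (5.03 ± 0.45), MYC (4.8 ± 0.492), MXI1 (4.13 ± 0.714), MNT (3.09 ± 0.339), MXD1 (2.71 ± 0.567), MYCL (0.550 ± 0.0987) and MYCN (0; SD, n = 3). The ranges of neighbours overlapped from MXD4 down to MXI1, and between MNT and MXD1. The steps from MLX to MAX, MAX to MXD4, MXI1 to MNT, MXD1 to MYCL and MYCL to MYCN were between ranges that did not overlap. After si-EIF5A2 the order by mean was the same apart from MYC, which stood second through replicate 1 (58.2 CPM per kilobase). The mean of the other two libraries was 4.65 CPM per kilobase.

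The ratio of MYC to the summed MXD1, MXD3, MXD4, MXI1 and MNT, per kilobase, was 0.229, 0.212 and 0.245 in NC. After si-EIF5A2 it was 2.49, 0.202 and 0.181. In all libraries but si-EIF5A2 replicate 1 the RNA of the repressors thus exceeded that of MYC several times over, and the 2 remaining si-EIF5A2 ratios were below all 3 NC ratios. MAX alone measured 20.5, 17.5 and 17.2 CPM per kilobase in NC and 19.2, 23.2 and 22.2 after si-EIF5A2. Its level relative to the sum of MYC, MYCL and the 5 repressors was 0.663 to 0.725 in NC and 0.234, 0.820 and 0.714 after si-EIF5A2. RNA levels do not give protein levels, and these ratios carry no test.

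**Figure D3:**
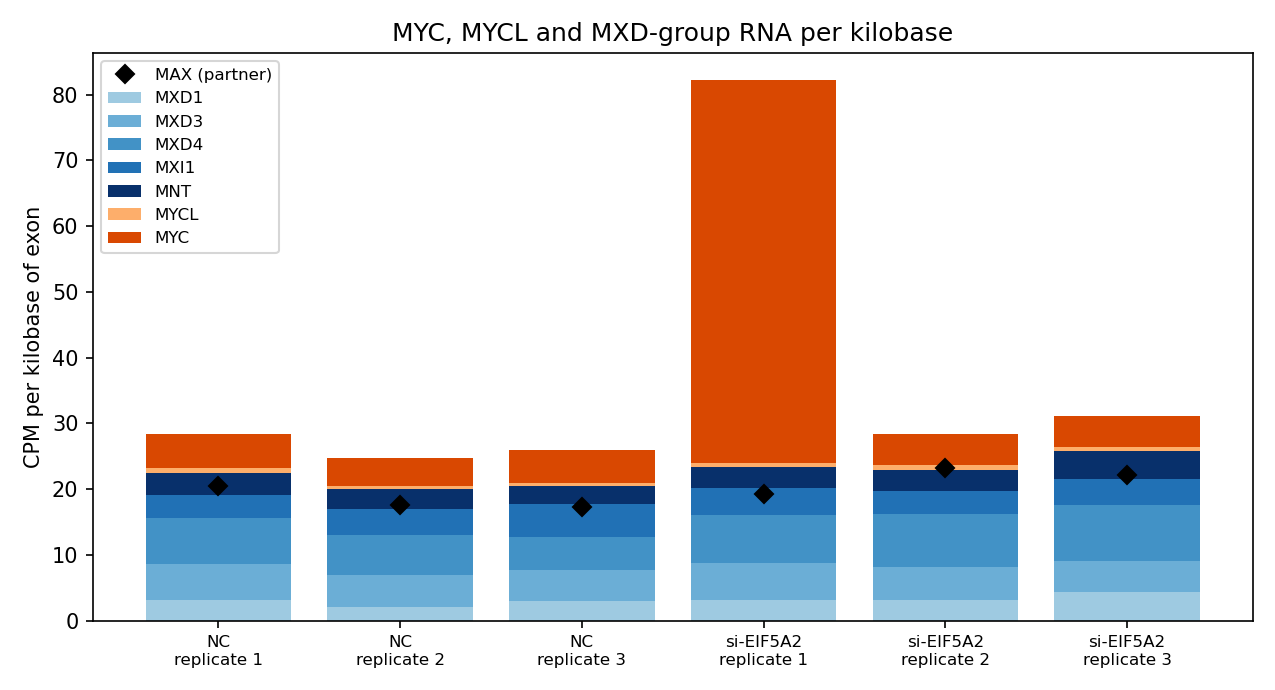
CPM per kilobase of exon in each library, stacked for the repressors MXD1, MXD3, MXD4, MXI1 and MNT (blue) and for MYCL and MYC (orange), with MAX as a black diamond. The blue part is 20.0 to 25.8 in every library, and the MYC part is 4.24 to 5.16 in 5 libraries and 58.2 in si-EIF5A2 replicate 1.

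Of the 3 further proteins of the network, MLXIP and MGA were tested. MLXIP, the glucose-sensing partner of MLX also called MondoA, measured 75.1 ± 4.21 CPM in NC and 80.3 ± 10.4 CPM after si-EIF5A2 (SD, n = 3 each), with a log2 fold change of 0.10 (SE 0.11, edgeR adjusted p = 0.539). MGA, a scaffold that pairs with MAX, measured 13.9 ± 1.20 and 14.2 ± 2.83 CPM, with a log2 fold change of 0.03 (SE 0.16, edgeR adjusted p = 0.908). MLXIPL, also called ChREBP, was at most 0.156 CPM in any library and was not tested.

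The E-box was then searched in promoter windows from RefSeq (GRCh38.p14), which run from 250 bases before to 50 bases after a gene's start. CACGTG reads the same on both strands. It was found in 7.26% of 35116 windows, and 8.77% of the 27305 symbols had it in at least 1 window. A window was held for 9 members, of which MXD4, MNT and MLX had the motif. MYC itself had no window, so it was not searched. The 30 bases around it are shown for these members, which are themselves E-box-binding proteins, and for CDK4, a listed target with 3 matches, with the E-box in capitals, 5′ to 3′ on the gene's strand. The MXD4 stretch is chr4:2262330-2262359 on the minus strand, the MNT stretch chr17:2401236-2401265 on the minus strand, and the MLX stretch chr17:42567038-42567067 on the plus strand. Both CDK4 stretches are on the minus strand, at chr12:57752499-57752528 and chr12:57752394-57752423.
MXD4: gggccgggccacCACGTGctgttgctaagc
MNT: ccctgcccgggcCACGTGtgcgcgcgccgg
MLX: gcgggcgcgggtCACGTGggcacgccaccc
CDK4 upstream stretch: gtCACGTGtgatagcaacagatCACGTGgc
CDK4 downstream stretch: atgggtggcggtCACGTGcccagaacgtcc

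Counted from the start that the window uses, the motif began 238 bases before it in MXD4, 193 in MNT and 50 in MLX. These starts differ from the ends of the GENCODE gene positions given above for these members. In CDK4 the matches began 216, 196 and 101 bases before the start. A match describes the letters and not a bound site. Of the MYC targets V2 with a window, 25 of 47 (53.2%) held the motif, and of the classical E-box targets 7 of 14 (50%). The 3 members with the motif had log2 fold changes of 0.42 (MXD4), 0.23 (MNT) and 0.47 (MLX), and none of them was called, whereas CDK4 was called lower. Other listed genes differed from CDK4. TXNIP and NCL, both called lower, and TFRC, called higher, held no motif in their windows. ODC1, which was not called, had 2 matches in a window. Whether the motif goes with a change was not tested.

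The MYC targets V2 were called at about the rate of all genes. Of 57 listed genes 56 were tested, and 3 rose and 11 fell (25%, against 24.6% of all genes tested). Their median log2 fold change was -0.20, against -0.01 for all genes tested, and 41 of the 56 were negative, against 8225 of the 16208 genes tested. PLK1, a mitotic kinase, fell from 167 ± 17.9 to 19.5 ± 3.69 CPM, a log2 change of -3.10. PLK4, the kinase of centriole duplication, fell from 10.1 ± 1.14 to 2.02 ± 0.0776 CPM (-2.32). CDK4, the kinase of G1 entry, fell from 347 ± 77.1 to 78.9 ± 5.50 CPM (-2.14), and MCM4, of the replicative helicase, fell from 141 ± 7.06 to 52.3 ± 4.05 CPM (-1.43). These 4 are genes of the cell cycle and of DNA replication.

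Of the V2 genes that rose, NOLC1, a nucleolar phosphoprotein gene, went from 62.7 ± 8.12 to 163 ± 14.4 CPM (log2 change 1.38). HSPD1, the mitochondrial chaperonin, rose from 376 ± 25.3 to 663 ± 36.0 CPM (0.82). Its partner HSPE1 rose from 67.3 ± 25.4 to 127 ± 6.12 CPM (0.92, edgeR adjusted p = 0.0326). The adjusted p of HSPE1 stayed under 0.05 only when NC replicate 3 was left out and lay between 0.0722 and 0.093 without any other library, and its exons overlap HSPE1-MOB4 on the same strand.

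Of the 16 classical E-box targets 14 were tested, and 1 rose and 4 fell (35.7%, against 24.6% of all genes tested). Their median log2 fold change was -0.24, against -0.01 for all genes tested. SHMT2, the mitochondrial serine hydroxymethyltransferase, fell from 937 ± 46.7 to 298 ± 33.8 CPM (-1.65). CDC25A, a phosphatase that activates cyclin-dependent kinases, fell from 18.6 ± 2.14 to 7.97 ± 1.08 CPM (-1.22), and NCL, nucleolin, from 486 ± 27.9 to 310 ± 46.1 CPM (-0.65). CDK4 was the fourth. TFRC, the transferrin receptor, rose from 449 ± 49.9 to 681 ± 138 CPM (0.60, edgeR adjusted p = 0.0213). Without NC replicate 1, NC replicate 2 or si-EIF5A2 replicate 2 the adjusted p of TFRC was 0.0749, 0.0642 or 0.0649. ODC1, ornithine decarboxylase, often used as a readout of MYC and named here outside the rule, measured 451 ± 38.5 and 406 ± 27.6 CPM (-0.15, edgeR adjusted p = 0.232).

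Of the 11 genes that MYC is known to repress 9 were tested, and 0 rose and 2 fell (22.2%, against 24.6% of all genes tested). Their median log2 fold change was -0.08, against -0.01 for all genes tested. CDKN1C, a CDK inhibitor, fell from 11.0 ± 1.64 to 4.24 ± 0.552 CPM (-1.38). FTH1, the ferritin heavy chain, fell from 2081 ± 231 to 1368 ± 217 CPM (-0.60). Of the 9 genes regulated by MLX with MLXIP or MLXIPL, 7 were tested and 1 fell (14.3%, against 24.6% of all genes tested). That gene was TXNIP, the thioredoxin-binding protein and the best known target of MLXIP, at 133, 134 and 141 CPM in NC and 46.7, 41.6 and 37.7 CPM after si-EIF5A2 (log2 change -1.70, SE 0.10, edgeR adjusted p = 1.26e-05). Its paralog ARRDC4 was at or under 0.113 CPM in every library and was not tested. FASN, fatty acid synthase, went from 583 ± 50.6 to 805 ± 46.9 CPM (0.47, edgeR adjusted p = 0.00387), which was under the 1.5-fold limit. KLF10, a zinc finger factor, measured 113 ± 36.5 CPM in NC and 55.3 ± 19.1 CPM after si-EIF5A2 (-1.03), with an adjusted p of 0.0916 by edgeR and 0.00165 by DESeq2. ARRDC4, FASN and KLF10 were picked with their values in view.

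The genes that control the stability of the MYC protein were measured too. All 20 were tested, and 5 rose and 9 fell (70.0%, against 24.6% of all genes tested), and their median log2 change was -0.26. This list was written with earlier results of these data known, so its share called is a description only. At an unadjusted p under 0.05 and a 2-fold change 5 of the 20 passed, against 14.6% of all genes tested. PLK1 and AURKA, kinases that stabilise MYC or MYCN against FBXW7, both fell, AURKA from 112 ± 28.7 to 27.3 ± 2.42 CPM (-2.04). BTRC, a ubiquitin ligase subunit, fell from 26.4 ± 1.59 to 8.67 ± 1.33 CPM (-1.60). These genes act on many other proteins too, and PLK1 and AURKA are genes of mitosis.

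Among those that rose, FBXW7, the ubiquitin ligase subunit that marks phosphorylated MYC for breakdown, went from 8.91, 9.56 and 12.2 CPM to 19.6, 17.5 and 19.5 CPM (log2 change 0.89, SE 0.15, edgeR adjusted p = 0.00228). FBXO32, another such subunit, rose from 23.5 ± 1.24 to 43.0 ± 1.76 CPM (0.87). PPP2R5A, the phosphatase subunit that removes a stabilising phosphate from MYC, rose from 20.7 ± 1.76 to 37.4 ± 1.65 CPM (0.86), and AXIN1, a scaffold of the breakdown complex, from 34.1 ± 5.67 to 57.2 ± 2.60 CPM (0.75). The MYC protein was not measured here.

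**Figure D4:**
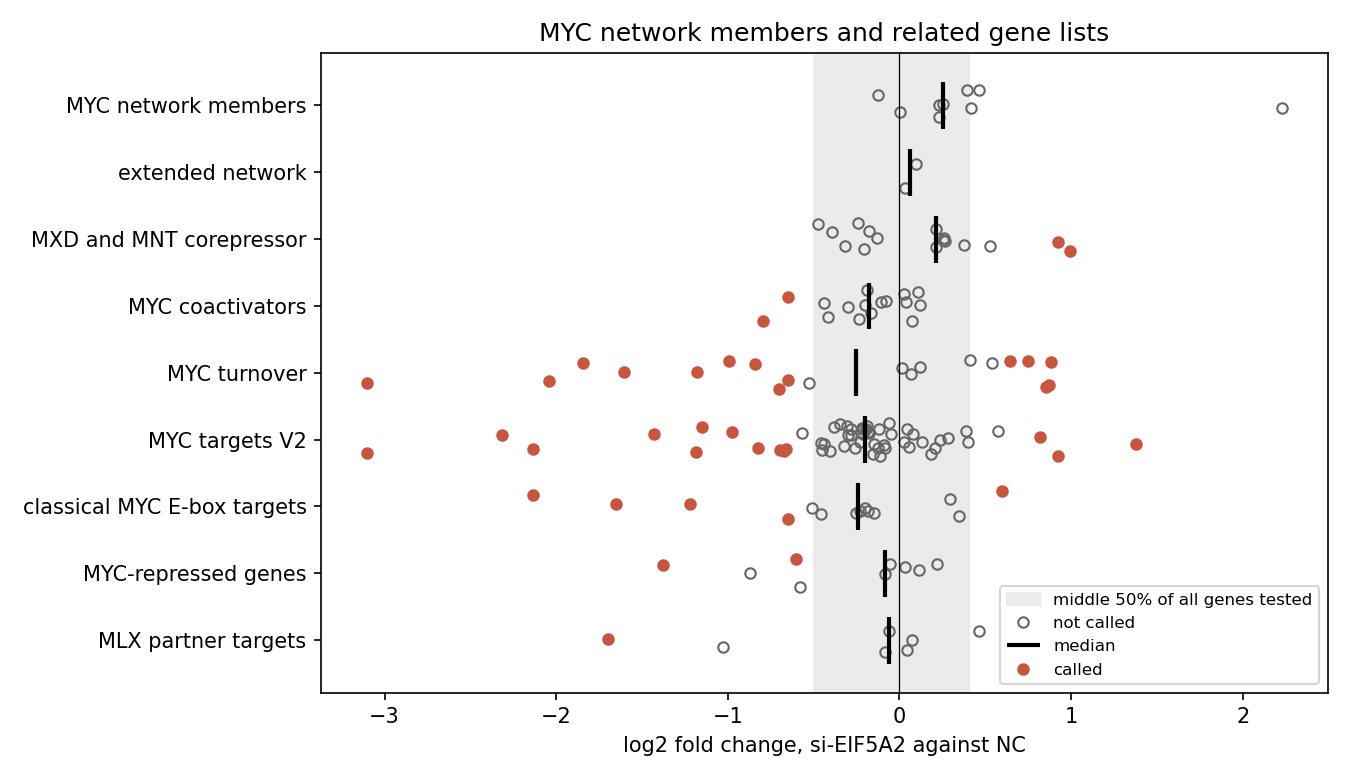
Log2 fold change of si-EIF5A2 against NC for each tested gene of the network and of 8 related lists, with called genes filled, a bar at each list's median, and the middle 50% of all genes tested in grey. The members hold 0 called genes, and MYC at 2.23 is not called, while the MYC turnover list holds 14 of 20. The lists were written with earlier results of these data known.

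The repressors and the activators recruit different enzyme complexes. Of 16 genes of the SIN3 and histone deacetylase corepressor 2 rose and 0 fell (12.5%, against 24.6% of all genes tested). Their median log2 change was 0.22, and 7 of the 16 were negative. Named outside the rule, SIN3A was at -0.47 (edgeR adjusted p = 0.116) and SIN3B at -0.39 (edgeR adjusted p = 0.0127). HDAC1, also outside the rule, was at 0.53 (edgeR adjusted p = 0.00343). The groups did not overlap for 12 of the 16 (75%, against 51.2% of all genes), and with no limit on the fold 6 of the 16 passed, against 36.9% of all genes. ING1, a chromatin reader of that complex, rose from 8.90 ± 0.789 to 17.7 ± 4.97 CPM (0.995, edgeR adjusted p = 0.00613). The second was its relative ING2, from 2.92 ± 0.353 to 5.53 ± 0.424 CPM (0.92, edgeR adjusted p = 0.0044), which is under the level set for naming and is given because there were only 2. Of 16 coactivator genes 0 rose and 2 fell (12.5%), with a median of -0.17. KAT5, the TIP60 acetyltransferase, fell from 87.4 ± 9.44 to 50.3 ± 8.05 CPM (-0.80, edgeR adjusted p = 0.0027), and EP400, a subunit of the same complex, from 60.1 ± 5 to 38.3 ± 6.68 CPM (-0.65, edgeR adjusted p = 0.00645). TRRAP, the scaffold through which MYC binds these enzymes, named outside the rule, measured 29.4 ± 2.58 and 27.8 ± 1.49 CPM (edgeR adjusted p = 0.595).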

How the data were processed

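RNA of SKOV3 cells was sequenced by the authors as paired-end mRNA libraries, 3 per group, and quantified with StringTie and ballgown. The deposited table holds estimated counts (expected counts) per gene, whole and not normalized. The aligner and human build are not given in the sources used here. The submitters' processing notes list Bowtie 0.12.2 and the mouse builds mm8 and mm9, which go against the human identifiers. All 6 columns were matched by name, with 0 left over. Of 58825 identifiers, 58552 were in GENCODE release 29.

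StringTie shares fragments between overlapping transcripts. The test was planned for counts, and the estimated counts were whole already. They were fitted with edgeR 4.0.16 (R 4.3.3): filterByExpr, TMM, robust quasi-likelihood, condition as the only term, and Benjamini-Hochberg adjustment, with 16208 genes left after the filter and a common biological coefficient of variation of 0.261. A standard error is the fitted log2 change over the square root of its F statistic. Likeness used log2 CPM with a prior count of 2. DESeq2 1.42.0, other normalizations and filters, a replicate term, other thresholds and leaving out each library were the alternatives. Tested on simulated data, the fit gave called genes the right direction, but false calls were more frequent than the nominal rate of the threshold. In that simulation only a small share of genes was changed, each by 2-fold or more. It therefore does not cover smaller changes, and its rate of false calls need not hold for these data. Intervals and floors cover counting or fitting error only.

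The members and gene lists were written with earlier results of these data known. Named were all members, EIF5A2, the 3 further network genes and, per list, up to 4 called genes with the largest rise and 4 with the largest fall at a mean of 10 CPM or more in the higher group, beside the 3 genes most like MYC. The lists came from general knowledge, and PLK1, CDK4 and NPM1 stand in more than 1. Values of some genes on the lists are not reported here.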

Additional observations from a re-analysis of the deposited data

How the results depend on the processing

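Directions of the members held under the alternative normalizations, filters and tools, with these exceptions. MYC was at -0.053 without si-EIF5A2 replicate 1 (range -0.053 to 2.711 when leaving out 1 library), and the ratio of MYC to the repressors, 4.18 times NC in si-EIF5A2, was 0.836 times NC without it (range 0.836 to 5.88). MXD3, near 0, was at -0.01 with upper-quartile scaling, -0.03 with no filter, -0.008 with at least 10 counts in every library and -0.007 with counts divided by the step of 3.86, and at -0.08 to 0.075 when leaving out 1 library. MXI1 was at -0.232 to 0.009 when leaving out 1 library. With no limit on the fold change 1 member was called, and 5974 genes; at an unadjusted p under 0.05 and a 2-fold change 2370 genes were called, against 3992.

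The number of genes called moved as follows. With no limit on the fold 36.9% of all genes tested were called. Called were 6 of 16 corepressor genes, 5 of 16 coactivators and 25 of 56 V2 targets. So were 8 of 14 classical targets and 2 of 7 MLX targets. At an unadjusted p under 0.05 and 2-fold 14.6% of all genes tested were called. Called were 0 of 16 corepressor genes, 0 of 16 coactivators, 5 of 20 turnover genes and 7 of 56 V2 targets. So were 3 of 14 classical targets, 1 of 9 repressed genes and 2 of 7 MLX targets. DESeq2 gave 2 of 7 MLX targets, and 26.6% of all genes. Over all genes, leaving out 1 library gave 3638 to 3907 calls. Leaving out 1 library gave 1 to 2 coactivators, 3 to 5 classical targets (3 without si-EIF5A2 replicate 1), 1 to 3 repressed genes (1 without NC replicate 1 or si-EIF5A2 replicate 2) and 1 to 2 MLX targets (2 without NC replicate 2). The cause was not tested, beyond fewer libraries or another threshold.

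With the replicate number as a block, 2 MLX targets and 3731 genes were called, MYC was at 1.08 (edgeR adjusted p = 0.54) and MXD4 at 0.42 (0.0709). The numbers do not pair the libraries: deviations of same-numbered libraries correlated at -0.02442, 0.005218 and -0.002695. With 3 libraries per group a fold change near 1.3 could be estimated only roughly for some members. Apart from MYC, the largest standard errors were those of MLX and MYCL. They were 0.23 for MLX, at 126 CPM in NC, and 0.22 for MYCL, at 2.78 CPM in NC.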
